A study of Homo sapiens with 6 samples.

Results

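The DNA replication and S phase genes examined here were 35 genes chosen by symbol: the subunits of the MCM2 to MCM7 helicase, the factors that load and start it, the polymerase and clamp genes, the enzymes that make deoxynucleotides, and E2F transcription factors with some of their targets. All 35 were among the 23368 genes of the count table, and all 35 passed the filter on low counts that left 11097 tested genes. The study sequenced RNA of H2122 cells, an established line from a human lung adenocarcinoma. Cells received an shRNA directed at LYCAT (the former symbol for LCLAT1, an acyltransferase of cardiolipin and phosphatidylinositol) or a control shRNA for 48 hours, with 3 libraries for each. The series title speaks of a knockout, while the sample labels name an shRNA. No label tells whether replicate libraries were grown as separate cultures, so each p-value speaks of the spread among libraries, part or all of which may be technical.

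Cells copy their genome once per cycle. In G1 phase the licensing factors CDC6 and CDT1 load MCM2 to MCM7 onto replication origins, and in S phase CDC45 and the GINS complex turn the loaded helicase on. Many of these genes are transcribed when E2F1, E2F2 and related factors are released from the retinoblastoma protein; p21, the product of the p53 target CDKN1A, inhibits the cyclin-dependent kinases that bring about this release. The question asked of the members was whether they were lower with LYCAT shRNA, where CDKN1A was higher.

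Library totals were 3118946 to 4730453 counts with LYCAT shRNA and 4075367 to 4930079 counts with control shRNA, and the members took 0.387% to 0.399% of a library. The chi-square per degree of freedom was 1.36 to 2.58 for 2 libraries of a group and 5.08 to 7.04 for libraries of different groups. The epithelial markers EPCAM, KRT7, KRT8, KRT18, KRT19 and CDH1 were all present, and 4 of these 6 fell, where 9.26% of all tested genes did (edgeR, adjusted p under 0.05). Of 13 markers of fibroblasts, endothelium and blood, 3 were tested and 0 passed with edgeR (COL1A1 was lower at an unadjusted p of 0.0479); their summed level was 19.0 to 37.9 CPM with LYCAT shRNA and 31.3 to 129.9 CPM with control shRNA, highest in control replicates 1 and 2. PECAM1, CDH5, PTPRC and CD3E were at 0 in every library, where 3 counts correspond to 0.609 to 0.962 CPM. The part of these markers in the members' values was not tested.

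LCLAT1, the target of the shRNA, had 18.9, 22.6 and 23.6 CPM (counts scaled to library size, per 1000000) with LYCAT shRNA, against 56.8, 61.2 and 65.3 CPM with control shRNA. It fell to 35.5% of the control level (exact two-sided permutation p = 0.1, the smallest that 3 against 3 libraries can give). CDKN1A had 199.9, 203 and 199.7 CPM with LYCAT shRNA, against 49.5, 50.5 and 47.8 CPM with control shRNA. It rose 4.07-fold (log2 fold change 2.03, SE 0.0733, edgeR quasi-likelihood adjusted p = 8.08e-38). In both genes the groups did not overlap.

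No member was called lower where CDKN1A was higher. Of the 35 members 6 rose, 29 did not pass and 0 fell at an adjusted p under 0.05 (edgeR quasi-likelihood test, Benjamini-Hochberg adjustment over all tested genes). That is 17.1% of the members higher, where 9.81% of all tested genes were higher, and 0 members lower, where 9.26% of all tested genes were lower. At an unadjusted p under 0.05 with edgeR, 8 members were higher and 2 lower, against 15.5% and 15.3% of all tested genes. DESeq2 called 3 members higher and 0 lower (all tested genes: 5.72% and 5.03%). Limma-voom called 5 members higher and 0 lower (all tested genes: 9.25% and 8.64%). Against a 1.5-fold change (glmTreat) 0 members passed, where 1.33% of all tested genes did. Leaving out LYCAT shRNA replicate 1, 2 or 3 in turn, edgeR called 3 members higher each time. The number of all genes called also varied between fits that leave out libraries, as given below. Leaving out both control replicates 1 and 2, a setting chosen after seeing the data that has 1 control library and assumes it to vary like the others, 0 members rose and 0 fell. The count that fell was 1 (POLA1, a subunit of the polymerase that makes the primers of replication) in 2 of the other settings, without control replicate 1 and with scaling by library totals only. In bulk RNA, a change in the share of cells in S phase and a change in the RNA of each such cell cannot be told apart. The median log2 fold change was -0.0083 over the members and -0.0057 over all tested genes. The median size of the change, whatever its sign, was 0.09 over the members and 0.16 over all tested genes. It was 0.14 over the 7784 genes whose mean level lay in the range of the members. Summed over the members, the level was 3926, 4011 and 4012 CPM with LYCAT shRNA, against 3831, 3877 and 3917 CPM with control shRNA, a ratio of 1.03. Every LYCAT shRNA library lay above every control library in this sum, by a small amount. The sum over other E2F targets of S phase, described below, went the other way. It was 7416 to 7482 CPM with LYCAT shRNA and 7746 to 8164 CPM with control shRNA. The sum over G2 and mitosis genes was also lower. That over RB, E2F and G1 to S control, which includes CDKN1A, was higher. The sums over other replication machinery and over replication-dependent histones overlapped between the groups.

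How large a fall the data leave room for was read from the 95% interval of each member's log2 fold change. The interval lay above a 1.5-fold fall in 34 of 35 members, where this held for 81.0% of all tested genes. It lay above a 1.2-fold fall in 27 members, where this held for 51.4% of all tested genes. These shares depend on level, because intervals are wider at few counts. The members all had a mean of at least 13.1 CPM, while all tested genes include lower ones. In E2F8 alone of the members the interval reached past a 1.5-fold fall, to 1.74-fold. No member's interval reached a 1.5-fold rise. The SE of a member's log2 fold change was 0.0477 to 0.182, smallest for PCNA at a mean of 514 CPM over all libraries and largest for E2F8 at 13.1 CPM, the lowest mean among the members.

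**Figure D1:**
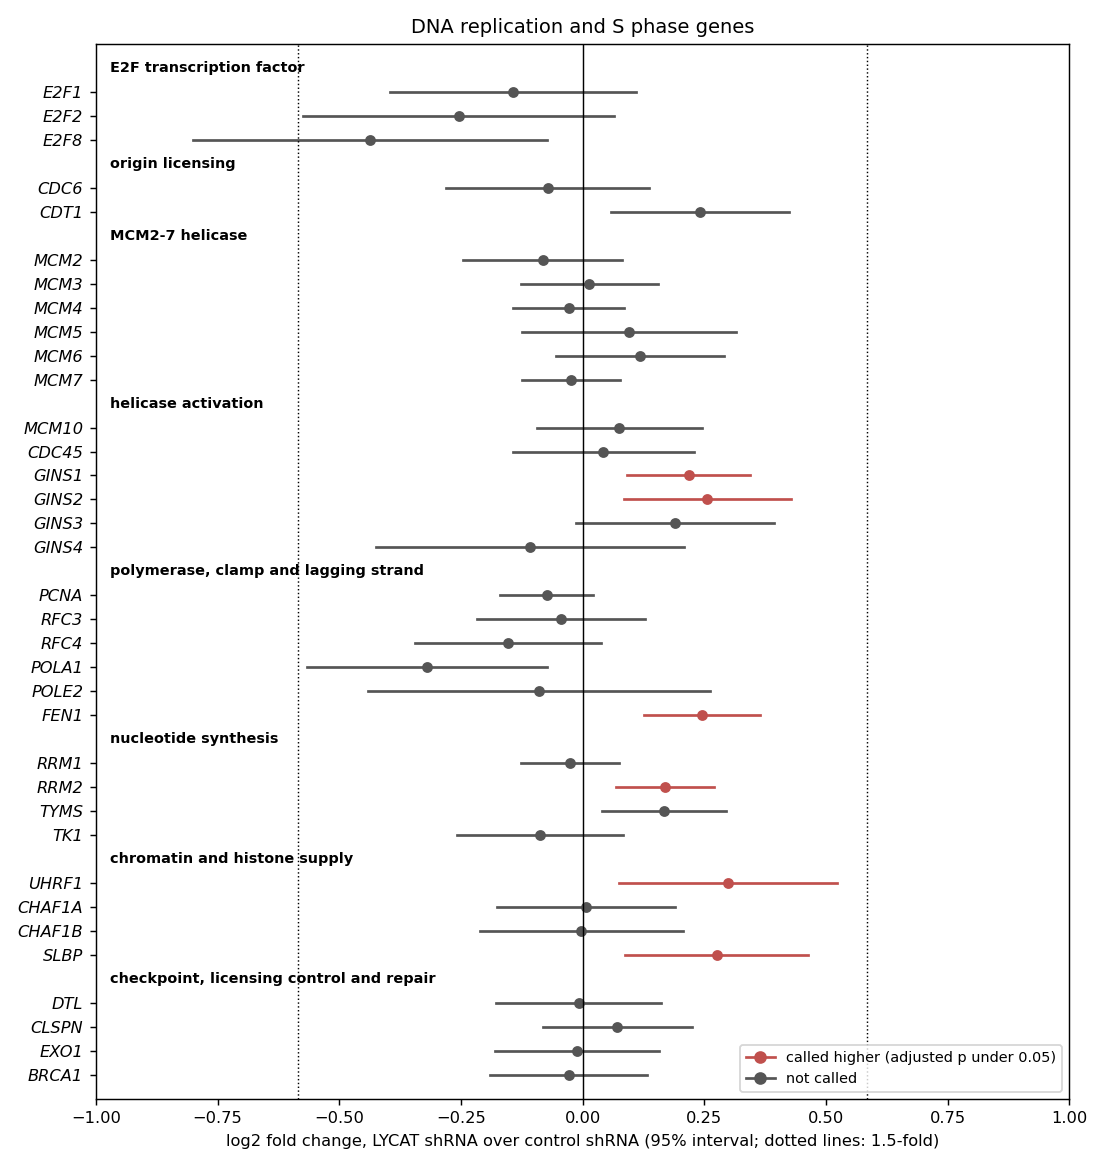
Log2 fold change of each of the 35 members, LYCAT shRNA over control shRNA, with its 95% interval, grouped by role; dotted lines mark 1.5-fold. The 6 members called higher lie between 0.17 and 0.30, no member was called lower, and the interval of E2F8 is the one that crosses the dotted line on the left.

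In 10 members each LYCAT shRNA library was above every control library, and in 3 members each was below. These separations held for 16.6% and 16.2% of all tested genes. The groups overlapped in the other 22 members.

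Promoter sequences show how far these genes carry the element that E2F factors are known to bind. Windows of 300 bases, from 250 before to 50 after the gene start, were found in RefSeq (GRCh38.p14) for 31 of the 35 members. MCM4, MCM5, GINS4 and E2F8 had no window in the set used. In 22 of the 31 windows the first transcribed bases were found near the start of a GENCODE transcript. The other windows may lie away from the promoter in use, and the shares below include them. The E2F motif was searched as TTTCCCGC, TTTCGCGC, TTTGCCGC or TTTGGCGC on both strands, and matches on opposite strands can overlap each other. It was found in 20 of 31 member promoters (64.5%), in 5.61% of the promoters of tested genes and in 3.31% of all 35116 promoters. The cell cycle genes homology region (CHR), an element known from promoters of G2 and mitosis genes, was searched as TTTGAA or TTCGAA on both strands. It was found in 2 of 31 member promoters (6.45%), in 11.0% of the promoters of tested genes and in 16.4% of all promoters. Among G2 and mitosis genes the order was the other way round, with the CHR in 28 of 37 promoters (75.7%) and the E2F motif in 2 of 37 (5.41%). Of the 20 members with an E2F match 3 rose and 0 fell, and of the 11 without one 3 rose and 0 fell. Over all tested genes with a promoter, 9.6% of those with an E2F match rose and 9.38% fell, against 9.71% and 9.28% of those without. A match describes the letters in this window and is not evidence of binding. Only these exact letters were searched, so a promoter without a match may still hold a near form of the E2F motif.

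The promoters of the 3 members that rose and hold an E2F match (GINS1, GINS2 and UHRF1), of MCM6, which holds the largest number of matches among the members, and of E2F1 follow, 5′ to 3′ on the gene's own strand; capitals mark the E2F matches.
GINS1 (chr20:25407423-25407722, plus strand): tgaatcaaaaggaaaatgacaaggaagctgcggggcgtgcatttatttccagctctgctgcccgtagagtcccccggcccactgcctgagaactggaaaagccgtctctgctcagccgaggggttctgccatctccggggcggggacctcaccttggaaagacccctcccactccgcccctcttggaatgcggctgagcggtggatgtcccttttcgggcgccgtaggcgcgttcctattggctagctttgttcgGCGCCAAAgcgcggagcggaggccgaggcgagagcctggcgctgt
GINS2 (chr16:85688905-85689204, minus strand): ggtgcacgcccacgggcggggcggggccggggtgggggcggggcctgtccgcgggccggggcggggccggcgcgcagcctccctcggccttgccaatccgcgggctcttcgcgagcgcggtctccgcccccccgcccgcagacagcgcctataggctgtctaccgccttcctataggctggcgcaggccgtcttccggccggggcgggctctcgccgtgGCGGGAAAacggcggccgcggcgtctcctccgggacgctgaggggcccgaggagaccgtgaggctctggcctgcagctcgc
UHRF1 (chr19:4909251-4909550, plus strand): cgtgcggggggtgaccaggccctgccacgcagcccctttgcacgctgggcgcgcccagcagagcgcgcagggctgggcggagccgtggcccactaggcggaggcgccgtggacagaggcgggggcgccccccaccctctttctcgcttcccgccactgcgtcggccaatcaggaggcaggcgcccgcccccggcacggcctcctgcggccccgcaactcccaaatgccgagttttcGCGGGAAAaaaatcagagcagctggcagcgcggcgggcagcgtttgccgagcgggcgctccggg
MCM6 (chr2:135876394-135876693, minus strand): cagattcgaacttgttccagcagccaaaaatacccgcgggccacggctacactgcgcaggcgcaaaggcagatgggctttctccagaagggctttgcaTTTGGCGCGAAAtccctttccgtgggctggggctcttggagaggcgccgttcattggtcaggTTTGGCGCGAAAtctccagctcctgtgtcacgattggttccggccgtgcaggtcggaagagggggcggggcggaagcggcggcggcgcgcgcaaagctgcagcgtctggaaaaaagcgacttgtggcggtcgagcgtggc
E2F1 (chr20:33686336-33686635, minus strand): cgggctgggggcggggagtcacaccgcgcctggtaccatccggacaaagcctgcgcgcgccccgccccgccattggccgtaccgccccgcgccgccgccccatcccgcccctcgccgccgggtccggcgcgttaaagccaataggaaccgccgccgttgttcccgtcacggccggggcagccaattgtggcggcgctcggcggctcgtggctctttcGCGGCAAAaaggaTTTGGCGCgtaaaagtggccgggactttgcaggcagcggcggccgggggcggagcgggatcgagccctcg
In MCM6 each of the 2 capital runs holds 2 overlapping matches, 1 per strand, and MCM6 itself did not pass the test. In GINS1 the match begins 6 bases after the gene start, and in GINS2 and UHRF1 it begins 31 and 14 bases before it.

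**Figure D2:**
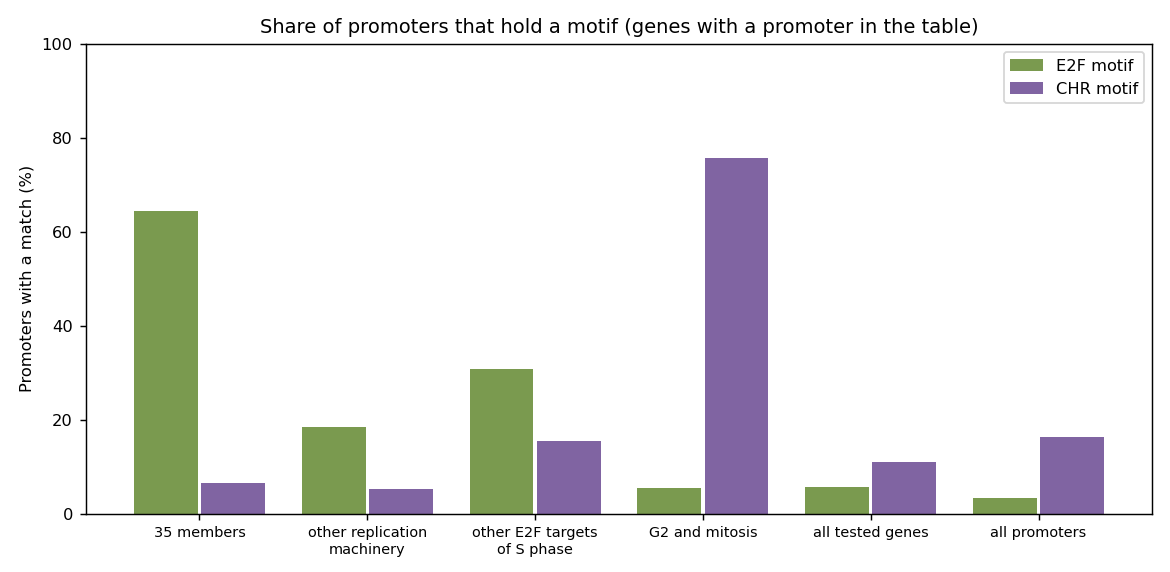
Share of promoters with at least 1 match to the E2F motif (green) or the CHR (purple), in percent, for the members, other gene lists, all tested genes and all promoters of the table. The members stand at 64.5% for E2F and 6.45% for the CHR, and G2 and mitosis genes at 5.41% and 75.7%.

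The E2F transcription factors had the lowest median log2 fold change among the groups of members by role (-0.25), and 0 of 3 passed. E2F1, an activator of S phase genes, had 28.9, 25.2 and 25.0 CPM with LYCAT shRNA, against 25.7, 32.4 and 29.6 CPM with control shRNA, and the groups overlapped. E2F2, also an activator, had 15.9, 16.4 and 13.8 CPM with LYCAT shRNA, against 17.6, 19.5 and 17.7 CPM with control shRNA. E2F8, a repressor that is itself an E2F target, had 13.0, 9.03 and 11.0 CPM with LYCAT shRNA, against 16.1, 14.2 and 15.3 CPM with control shRNA. In E2F2 and E2F8 all LYCAT shRNA libraries lay below all control libraries. The log2 fold changes were -0.14 for E2F1, -0.25 for E2F2 and -0.44 for E2F8, with edgeR adjusted p-values of 0.486, 0.291 and 0.0833. E2F8 had the lowest value of all members (95% interval -0.80 to -0.07) and did not pass without any 1 library or under any other setting (adjusted p = 0.0621 to 0.275).

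Of the origin licensing factors, neither passed. CDT1, which brings the helicase to the origin, had 63.8, 61.9 and 63.8 CPM with LYCAT shRNA, against 56.4, 52.1 and 52.0 CPM with control shRNA. The groups did not overlap, the log2 fold change was 0.24 and the edgeR adjusted p was 0.0534; CDT1 passed without control replicate 1 (0.0491). CDC6, its partner, ranged over 46.4 to 61.7 CPM with LYCAT shRNA and over 46.7 to 64.0 CPM with control shRNA.

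The 6 subunits of the MCM2 to MCM7 helicase, the ring that unwinds DNA at the fork, did not pass, with log2 fold changes of -0.08 to 0.12. Their summed level was 889 ± 24.2 CPM with LYCAT shRNA and 895 ± 23.5 CPM with control shRNA (SD, n = 3 each). MCM7 had 337, 344 and 347 CPM with LYCAT shRNA, against 342, 356 and 346 CPM with control shRNA, and its 95% interval was -0.13 to 0.08 on the log2 scale. MCM6 was the subunit in which the groups did not overlap, at 71.9, 67.7 and 69.1 CPM with LYCAT shRNA, against 64.7, 61.8 and 66.5 CPM with control shRNA (log2 fold change 0.12, edgeR adjusted p = 0.379).

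Of the 6 factors that activate the helicase 2 rose, both of them subunits of the GINS complex. GINS1 had 169.3, 168.7 and 167 CPM with LYCAT shRNA, against 146, 141 and 148 CPM with control shRNA. It rose 1.16-fold (log2 0.22, SE 0.0630, edgeR adjusted p = 0.00825) and passed with the other scalings and filters, DESeq2, limma-voom, a replicate block and robust=FALSE, and with 1 library left out (0.00705 to 0.0459), but not against a 1.5-fold change or without control replicates 1 and 2 (0.145). GINS2 had 76.8, 77.7 and 71.0 CPM with LYCAT shRNA, against 59.8, 64.5 and 64.3 CPM with control shRNA. It rose 1.19-fold (edgeR adjusted p = 0.0255), but did not pass with DESeq2 (0.109) or without control replicate 1 or LYCAT shRNA replicate 1 or 2 (0.087 to 0.112). GINS3 had a log2 fold change of 0.19 without overlap between the groups (50.8, 46.1 and 48.1 CPM with LYCAT shRNA, against 39.0, 44.6 and 44.1 CPM with control shRNA) and did not pass (adjusted p = 0.200). GINS4, the least abundant subunit, overlapped at 15.6 to 19.8 CPM with LYCAT shRNA and 15.4 to 22.2 CPM with control shRNA. CDC45 and MCM10, which act with GINS on the helicase, had log2 fold changes of 0.04 and 0.08 and did not pass.

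Of the 6 genes of DNA synthesis at the fork 1 rose, and the other five did not pass. FEN1, the nuclease that trims flaps from Okazaki fragments, had 215, 224 and 209 CPM with LYCAT shRNA, against 173, 181 and 193 CPM with control shRNA. It rose 1.19-fold (log2 0.25, SE 0.0599, edgeR adjusted p = 0.0015), the smallest adjusted p among the members, and passed in the same settings as GINS1 (0.000642 to 0.0193), but not against a 1.5-fold change or without control replicates 1 and 2 (0.172). In GENCODE v29, 166 exonic bases of FEN1 lie opposite TMEM258. The strand setting was not given in the sources used here, so the FEN1 count may include reads of TMEM258. FEN1 also shares 49 exonic bases with FADS2 on the same strand, and FADS2 had 71 counts over the 6 libraries. POLA1, the catalytic subunit of polymerase alpha, had 23.4, 27.7 and 26.9 CPM with LYCAT shRNA, against 29.6, 33.8 and 33.2 CPM with control shRNA. The groups did not overlap and the log2 fold change was -0.32, but POLA1 did not pass (edgeR adjusted p = 0.0587). It passed as lower when scaled by library totals only (0.0481) and without control replicate 1 (0.0478). PCNA, the sliding clamp to which p21 also binds, had 489, 520.5 and 493 CPM with LYCAT shRNA, against 530.3, 511 and 539 CPM with control shRNA; its 95% interval was -0.17 to 0.02. RFC3 and RFC4, of the clamp loader, and POLE2, of polymerase epsilon, had log2 fold changes of -0.04, -0.15 and -0.09 and did not pass.

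Of the 4 genes of nucleotide synthesis, 1 rose. RRM2, the small subunit of ribonucleotide reductase, had 442, 437 and 493 CPM with LYCAT shRNA, against 420.3, 397 and 404 CPM with control shRNA. It rose 1.12-fold (log2 0.17, SE 0.0504, edgeR adjusted p = 0.0108) and did not pass without LYCAT shRNA replicate 3 (0.192), the highest of its group. In GENCODE v29, 1077 exonic bases of RRM2 are shared with AC007240.1 on the same strand, so its count may include reads of that gene. RRM1, the large subunit, overlapped at 353 to 364 CPM with LYCAT shRNA and 356 to 368 CPM with control shRNA. TYMS, thymidylate synthase, had 152, 165 and 161 CPM with LYCAT shRNA, against 140.2, 142 and 143 CPM with control shRNA. The groups did not overlap and TYMS did not pass (log2 fold change 0.17, edgeR adjusted p = 0.0545); 967 of its exonic bases lie opposite ENOSF1 in GENCODE v29, so reads of both cannot be told apart without strand. Exons of MCM2, GINS3 and GINS4 lie opposite other genes over 1113, 394 and 1159 bases. TK1, thymidine kinase, had a log2 fold change of -0.09 and overlapped.

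**Figure D3:**
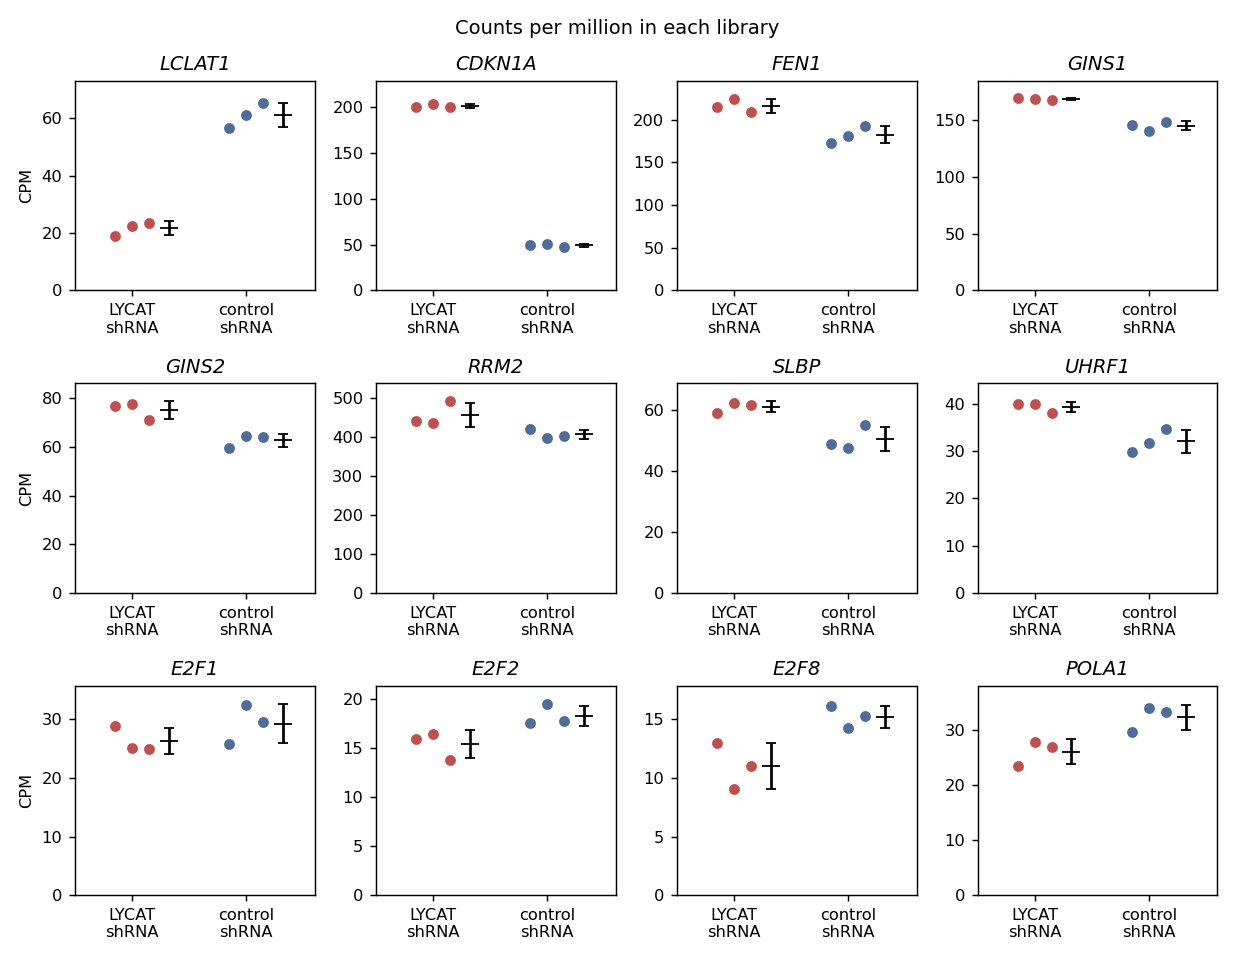
Level in each library (points, CPM, axes from 0) with the mean and SD of each group of 3, for LCLAT1, CDKN1A, the 6 members that rose, the 3 E2F genes and POLA1. CDKN1A is near 200 CPM with LYCAT shRNA and near 50 CPM with control shRNA, while the members that rose differ by 1.12- to 1.23-fold.

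Of the members that supply chromatin and histones, 2 rose. SLBP, which binds the stem-loop of histone mRNAs, had 58.9, 62.2 and 61.7 CPM with LYCAT shRNA, against 48.7, 47.6 and 54.9 CPM with control shRNA. It rose 1.21-fold (edgeR adjusted p = 0.0298) but did not pass with DESeq2 (0.125) or in 5 of the 6 fits that each leave out 1 library (0.06 to 0.0978), the exception being the fit without control replicate 3. UHRF1, which keeps DNA methylation through replication, had 39.98, 39.99 and 38.1 CPM with LYCAT shRNA, against 29.8, 31.6 and 34.7 CPM with control shRNA. It rose 1.23-fold at the edge of the threshold (edgeR adjusted p = 0.0498), and passed in 1 of 8 other settings and in 1 of 6 fits without 1 library (0.0396 to 0.195 over all). CHAF1A and CHAF1B, of chromatin assembly factor 1, had log2 fold changes of 0.0065 and -0.0021 and overlapped.

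Genes of the checkpoint, of licensing control and of repair did not pass. DTL, which directs CDT1 to destruction in S phase, CLSPN, a checkpoint mediator, EXO1, a nuclease, and BRCA1, of recombination repair, had log2 fold changes of -0.03 to 0.07. BRCA1 had 95.9, 91.9 and 94.1 CPM with LYCAT shRNA, against 86.6, 112 and 88.2 CPM with control shRNA, so that the spread within the control group was wider than the difference between the groups.

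Levels of different members were compared per kilobase of the longest coding transcript in GENCODE v29, an approximation because the annotation behind the counts was not given in the sources used here. PCNA was highest, at 369 ± 12.6 CPM per kilobase with LYCAT shRNA and 388 ± 10.5 with control shRNA (SD, n = 3 each). Next in the order of the control means came RRM1 at 116 ± 1.91 and 118 ± 2.14, MCM7 at 111 ± 1.69 and 113 ± 2.23, and RRM2 at 124 ± 8.46 and 111 ± 3.23 CPM per kilobase in LYCAT shRNA and control libraries; with LYCAT shRNA the mean of RRM2 was above those of RRM1 and MCM7, and among controls the SD ranges of MCM7 and RRM2 overlapped. The helicase subunits, which act in equal numbers, ran from MCM7 down to MCM5 at 11.1 ± 1.00 with LYCAT shRNA and 10.4 ± 0.749 with control shRNA. The GINS subunits ran from GINS1 at 51.8 ± 0.286 with LYCAT shRNA and 44.6 ± 1.22 with control shRNA to GINS4 at 4.52 ± 0.541 with LYCAT shRNA and 4.93 ± 0.884 CPM per kilobase with control shRNA. E2F2 was lowest, at 2.96 ± 0.273 with LYCAT shRNA and 3.52 ± 0.201 CPM per kilobase with control shRNA.

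**Figure D4:**
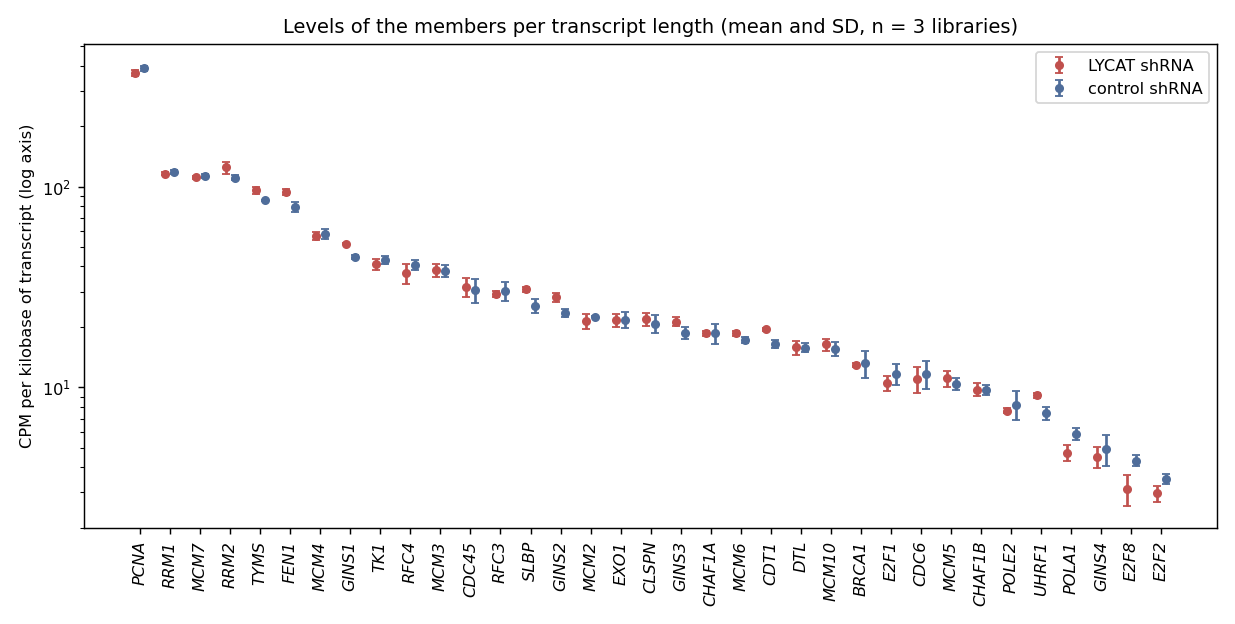
Level of each member in CPM per kilobase of transcript (log axis; mean and SD of 3 libraries), LYCAT shRNA in red and control shRNA in blue, in the order of the control level. PCNA leads at 369 with LYCAT shRNA and 388 with control shRNA, and the 2 lowest are E2F8 and E2F2.

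Of 46 other components of the replication machinery 42 did not pass, 2 rose and 2 fell (4.35% each way, below the 9.81% and 9.26% of all tested genes), and the median log2 fold change was -0.04; with 1 library left out, 1 to 3 rose and 1 to 4 fell. POLE3, a small subunit of polymerase epsilon, rose 1.18-fold to 333 ± 4.18 CPM with LYCAT shRNA, against 283 ± 11.7 CPM with control shRNA, and GMNN, geminin, the inhibitor of CDT1, rose 1.19-fold to 106.9 ± 7.72 CPM with LYCAT shRNA, against 90.4 ± 5.27 CPM with control shRNA. ATAD5, which unloads PCNA, fell 1.62-fold to 15.5 ± 2.63 CPM with LYCAT shRNA, against 24.9 ± 1.32 CPM with control shRNA (SD, n = 3 each; edgeR adjusted p = 0.000333). C15orf42, listed under that older symbol of TICRR, a factor of helicase activation, fell to 29.1 ± 3.57 CPM with LYCAT shRNA, against 37.2 ± 4.08 CPM with control shRNA.

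More of the other E2F targets of S phase fell than rose, and their median log2 fold change was -0.08. Of 34 tested 2 rose, 8 fell and 24 did not pass, so 23.5% fell, where 9.26% of all tested genes did; with DESeq2 5 fell, without LYCAT shRNA replicate 1, 4 fell, and without control replicate 3, 5 fell. CCNE1, cyclin E, which drives entry into S phase, had 18.7, 16.4 and 15.2 CPM with LYCAT shRNA, against 10.5, 9.12 and 10.3 CPM with control shRNA, and rose 1.69-fold (edgeR adjusted p = 0.00119). CDC25A, the phosphatase that activates the kinase of cyclin E, rose 1.36-fold to 61.1 ± 2.05 CPM with LYCAT shRNA, against 44.8 ± 4.44 CPM with control shRNA. DEK, a chromatin protein, fell 1.24-fold to 591 ± 17.8 CPM with LYCAT shRNA, against 732 ± 14.1 CPM with control shRNA, LMNB1, lamin B1, fell 1.18-fold to 474 ± 15.7 CPM with LYCAT shRNA, against 559 ± 31.9 CPM with control shRNA, and HELLS, a chromatin remodeller, fell 1.36-fold to 40.7 ± 4.36 CPM with LYCAT shRNA, against 54.9 ± 4.71 CPM with control shRNA (SD, n = 3 each).

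Of 31 genes of RB, E2F and G1 to S control 28 were tested, and 3 rose, 4 fell and 21 did not pass. That is 10.7% higher and 14.3% lower, near the 9.81% and 9.26% of all tested genes. CDKN1A, whose rise was part of the question asked, was 1 of the 3 that rose. DESeq2 called 1 gene of this list higher, CDKN1A, and 0 lower. RB1, the retinoblastoma gene, rose 1.24-fold to 55.1 ± 2.15 CPM with LYCAT shRNA, against 44.5 ± 5.74 CPM with control shRNA, and CCND1, cyclin D1, rose 1.13-fold to 158.6 ± 11.4 CPM with LYCAT shRNA, against 140.3 ± 8.02 CPM with control shRNA. RBL2, the retinoblastoma relative p130, fell 1.33-fold to 25.9 ± 3.14 CPM with LYCAT shRNA, against 34.2 ± 5.12 CPM with control shRNA. CDKN1B, the inhibitor p27, fell 1.2-fold to 60.7 ± 3.30 CPM with LYCAT shRNA, against 72.6 ± 1.29 CPM with control shRNA, and SKP2, which marks p27 for destruction, fell 1.14-fold to 146 ± 4.36 CPM with LYCAT shRNA, against 167 ± 13.9 CPM with control shRNA (SD, n = 3 each). Leaving out 1 library, 0 of these genes fell without LYCAT shRNA replicate 1, 1 without LYCAT shRNA replicate 3 or control replicate 1, 2 without LYCAT shRNA replicate 2 or control replicate 3 and 3 without control replicate 2.

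Among 45 genes of G2 and mitosis, which follow S phase, 15 fell (33.3%, where 9.26% of all tested genes did), 28 did not pass and 2 rose, and the median was -0.11. Whether this list and the members differ was not tested. CDC25B, a phosphatase that starts mitosis, fell 1.53-fold to 140.2 ± 3.63 CPM with LYCAT shRNA, against 214 ± 15.1 CPM with control shRNA, and the condensin genes SMC4 and SMC2 fell 1.27-fold each. CCNB1, cyclin B1, rose 1.13-fold to 400.4 ± 1.93 CPM with LYCAT shRNA, against 353 ± 19.9 CPM with control shRNA, and PTTG1, securin, rose 1.1-fold to 695 ± 40.2 CPM with LYCAT shRNA, against 634 ± 35.4 CPM with control shRNA. Without control replicate 3, 10 fell, and without control replicate 1, 0 rose. In G2 and mitosis genes with a CHR match 9 of 28 fell, and in those without one 4 of 9 fell; over all tested genes with a promoter, 13.5% of those with a CHR match fell, against 8.76% of those without.

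**Figure D5:**
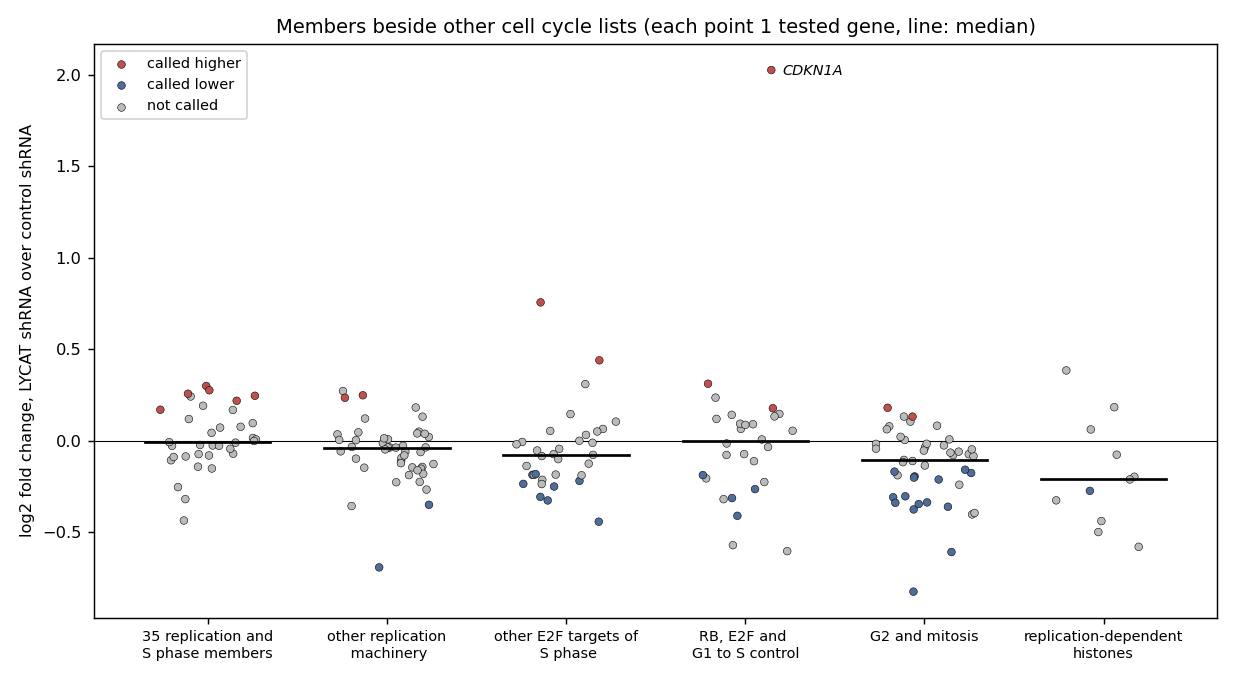
Log2 fold change, LYCAT shRNA over control shRNA, of each tested gene in the members and in 5 other lists; red points were called higher, blue points lower and grey points not called, and lines mark medians. The members hold 6 red and 0 blue points, G2 and mitosis genes 2 red and 15 blue points, and CDKN1A stands apart at 2.03.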

How the data were processed

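The authors deposited 1 table of raw counts per gene symbol for 6 libraries. The submitters' processing notes name featureCounts 1.5.1, Bowtie2, BWA 0.7.15 and bcl2fastq 2.17, with the builds hg19 and mm10; the aligner, build and strand setting of this table were not given in the sources used here. Columns with a misspelt form of LYCAT were assigned to the LYCAT shRNA group. The labels' protocol mentions an array, while the series is typed as sequencing and the values are whole numbers with unequal totals.

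Genes were filtered with filterByExpr by group (99.8% of counts kept), scaled by TMM (factors 0.993 to 1.01) and tested with edgeR 4.0.16 (R 4.3.3) by the quasi-likelihood F test with robust=TRUE, group as the only term and Benjamini-Hochberg adjustment over 11097 genes. An SE is the size of the log2 fold change divided by the square root of F, and intervals are 95%. The test was checked on 6 simulated tables. The first alone gave a larger share of false calls than the threshold allows, so 5 more were added and all were kept. The simulated counts used dispersions fitted by edgeR itself and fewer changed genes than were called here. They therefore do not settle the share of false calls in these data. The 1.2-fold bound set beside the intervals was chosen after seeing the data. Alternatives were DESeq2 1.42.0, limma-voom (limma 3.58.1), other scalings and filters, robust=FALSE, glmTreat, a replicate block and leaving out each library. Named genes were all members, LCLAT1, CDKN1A and up to 3 called genes per direction from each other list, by smallest adjusted p. The members, lists and motifs were chosen with earlier results of these data known. Promoters are from RefSeq (GRCh38.p14) and were not compared with coordinates of the count table. Depth limits genes of few counts most; intervals cover the spread between these libraries.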

Additional observations from a re-analysis of the deposited data

How the results depend on the processing

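The count of members that rose was 6, and was 5 to 6 with other scalings, filters, limma-voom, a replicate block or robust=FALSE; it was 3 with DESeq2, 0 against a 1.5-fold change (glmTreat), 3 to 6 with 1 library left out and 0 without control replicates 1 and 2. The count that fell was 0, and was 1 (POLA1) with library totals only and 0 to 1 with 1 library left out. The members' median was -0.0200 to 0.0312 with 1 library left out and 0.0206 without control replicates 1 and 2. Of 490 member values under 14 other settings none reversed a call, 23 lost it and 3 gained it, and 25 had the other sign in members that passed in neither fit.

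Over all genes, DESeq2 called 635 higher and 558 lower, glmTreat 84 and 64, fits without 1 library 742 to 1128 and 700 to 1100, and the fit without control replicates 1 and 2 573 and 556. LCLAT1 stayed between -1.57 and -1.40 and CDKN1A between 2.01 and 2.04 on the log2 scale with 1 library left out.

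Among the other lists, given as genes higher and lower: with DESeq2 the replication machinery had 1 and 1, other E2F targets 2 and 5, RB, E2F and G1 to S control 1 and 0, G2 and mitosis 1 and 13, and histones 0 and 0. G2 and mitosis had 1 higher with library totals only, limma-voom and robust=FALSE, and limma-voom called 2 genes of RB, E2F and G1 to S control lower. With 1 library left out, the replication machinery had 1 to 3 higher and 1 to 4 lower, other E2F targets 2 to 3 and 4 to 8, G1 to S control 1 to 3 and 0 to 3, G2 and mitosis 0 to 3 and 10 to 16, and histones 0 and 0 to 1. The cause of these changes was not tested.

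Libraries with the same replicate number in both groups did not deviate together (correlations of 0.0051, -0.064 and -0.048), and no library correlated best with that of its own number, so the numbers were not taken as pairs. With a replicate block 1044 genes rose and 1002 fell, 5 members rose and 0 fell, and 4 genes of the replication machinery fell.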

Other observations

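Replication-dependent histone genes, whose mRNAs SLBP binds and which are made in S phase, were mostly too low to test. They were listed by the start of the symbol, so the list can also hold pseudogenes and histone genes of other kinds. Of the 73 listed, 32 had 0 counts in every library and 11 were tested; 10 of these did not pass with edgeR, 1 fell (9.09%, near the 9.26% of all tested genes) and 0 rose, and the median log2 fold change was -0.21. HIST1H4C had 343, 347 and 289.8 CPM with LYCAT shRNA, against 396, 433 and 351 CPM with control shRNA (log2 fold change -0.27, SE 0.0735, edgeR adjusted p = 0.0127), and the groups did not overlap. The summed level of the 73 genes was 449 to 529 CPM with LYCAT shRNA and 518 to 613 CPM with control shRNA, which overlap, while SLBP rose. These mRNAs mostly lack a poly(A) tail, and the RNA selection was not given in the sources used here, so their levels depend on a step that cannot be judged. HIST1H4C did not pass with DESeq2 or without control replicate 1.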
